A study of Mus musculus with 8 samples.

Results

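The Hox genes were read in dorsal skin of mouse embryos that carry or lack GR, the glucocorticoid receptor, a hormone-activated transcription factor encoded by Nr3c1. Genes were taken whose single symbol in the array annotation is Hox, a cluster letter and a number, and each was read at its brightest probe set over all arrays. This gave 33 Hox genes of 18193 genes in all, and of the 39 Hox genes in the RefSeq gene table. The others had no probe set annotated to them alone and were not analysed here.

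The 8 arrays came from dorsal skin at embryonic day 18.5, all from the strain labelled B6D2/F1. The wild-type group (GR+/+) held 4 arrays, with label numbers 4, 6, 28 and 29. The GR-null group (GR-/-) held 4 arrays, with label numbers 5, 17, 25 and 26. The embryos were littermates delivered by caesarean section, and the labels give neither the litter, nor the allele behind the null genotype, nor whether every array had an embryo of its own. All p-values refer to the spread among these samples, and some of that spread may be technical. RNA came from whole skin, so fewer cells of a type and less RNA per cell cannot be told apart.

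Hox genes encode homeodomain transcription factors that lie in clusters named A to D, numbered within each cluster by paralogue group. Low numbers are used from the hindbrain and neck backwards, middle numbers in the thorax, and high numbers in the lumbar and sacral region, the tail, the genitals and the distal limb. Fibroblasts of postnatal skin keep such a code of their body position. HOX proteins bind DNA together with the TALE homeodomain cofactors of the MEIS, PBX and PKNOX families, and Polycomb and Trithorax proteins hold the clusters silent or active.

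As a check of the labels, 3 of the 6 Nr3c1 probe sets separated the genotypes, for example at 9.68 to 9.93 log2 in wild-type and 7.66 to 8.19 in GR-null arrays, and the other 3 did not. Defining markers of skin were present, since all 16 keratinocyte genes and all 15 measured dermal fibroblast genes of the marker lists were above background. Array medians lay between 6.46 and 6.52 log2. Skeletal muscle markers (28 of 28 above background) averaged 11.26 to 11.40 log2 in wild-type arrays. GR-null 17 was at 11.26, while GR-null 5, 25 and 26 were at 10.47, 10.79 and 10.71. GR-null 17 thus stood apart from its group, and calls or directions that differ without it are given beside the values with all arrays.

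Promoter sequences are shown for those Hox genes among the 8 with the smallest p that have an entry in the RefSeq promoter table (assembly GRCm38.p6), which holds 19 of the 33 genes. Each is the 250 bases before the annotated start, 5′ to 3′ on the gene's strand. Capitals mark matches, on either strand, to AGAACA, the single hexamer of the glucocorticoid response element, to TTTATG, a form of the site of the CDX proteins that act upstream of Hox genes, or to TGATTNAT, a composite site of PBX and HOX proteins.
Hoxd8, chr2:74704365-74704614, plus strand: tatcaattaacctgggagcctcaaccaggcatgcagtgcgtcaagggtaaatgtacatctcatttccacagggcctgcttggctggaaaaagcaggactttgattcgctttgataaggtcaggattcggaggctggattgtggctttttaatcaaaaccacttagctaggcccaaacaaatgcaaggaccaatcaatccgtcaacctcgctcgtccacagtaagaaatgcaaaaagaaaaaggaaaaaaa
Hoxa7, chr6:52218574-52218823, minus strand: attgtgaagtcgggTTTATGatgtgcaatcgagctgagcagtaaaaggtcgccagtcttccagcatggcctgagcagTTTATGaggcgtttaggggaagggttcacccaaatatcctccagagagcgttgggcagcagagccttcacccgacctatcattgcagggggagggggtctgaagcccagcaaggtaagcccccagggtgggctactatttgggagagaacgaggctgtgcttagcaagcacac
Hoxa11, chr6:52245811-52246060, minus strand: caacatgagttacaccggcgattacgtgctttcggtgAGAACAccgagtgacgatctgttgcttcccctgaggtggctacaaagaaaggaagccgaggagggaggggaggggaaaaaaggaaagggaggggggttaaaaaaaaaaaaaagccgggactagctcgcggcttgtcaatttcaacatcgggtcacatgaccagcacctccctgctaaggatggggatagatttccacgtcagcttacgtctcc

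The full glucocorticoid response element, which is this hexamer, any 3 bases and its reverse complement, was found in 0 of 21 promoters of these 19 Hox genes, and in 0.00913% of all 32851 promoters of this length. The hexamer was found in 2 of the 19 genes, Hoxa11 and Hoxa9, and in 16.1% of all promoters. TTTATG was found in 3 genes, with 2 matches in the Hoxa7 sequence, against 10.8% of all promoters, and TGATTNAT in 2 genes, against 2.82%. The Hoxd8 sequence held no match. A match is a description of letters, and no match says only that they are not in this window.

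Levels are log2 brightness of a probe set and depend on its probes, so they are set against background and not ranked between genes. The background level was 5.71 log2, the 95th percentile of 38 olfactory receptor genes, whose means lay between 3.63 and 6.19. By this measure 23 of the 33 Hox genes were above background, against 71.5% of all genes. These were 7 of 9 in cluster A, 5 of 9 in cluster B, 7 of 7 in cluster C and 4 of 8 in cluster D. By paralogue number they were 7 of 10 genes numbered 1 to 4, 8 of 9 numbered 5 to 8, and 8 of 14 numbered 9 to 13.

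**Figure D1:**
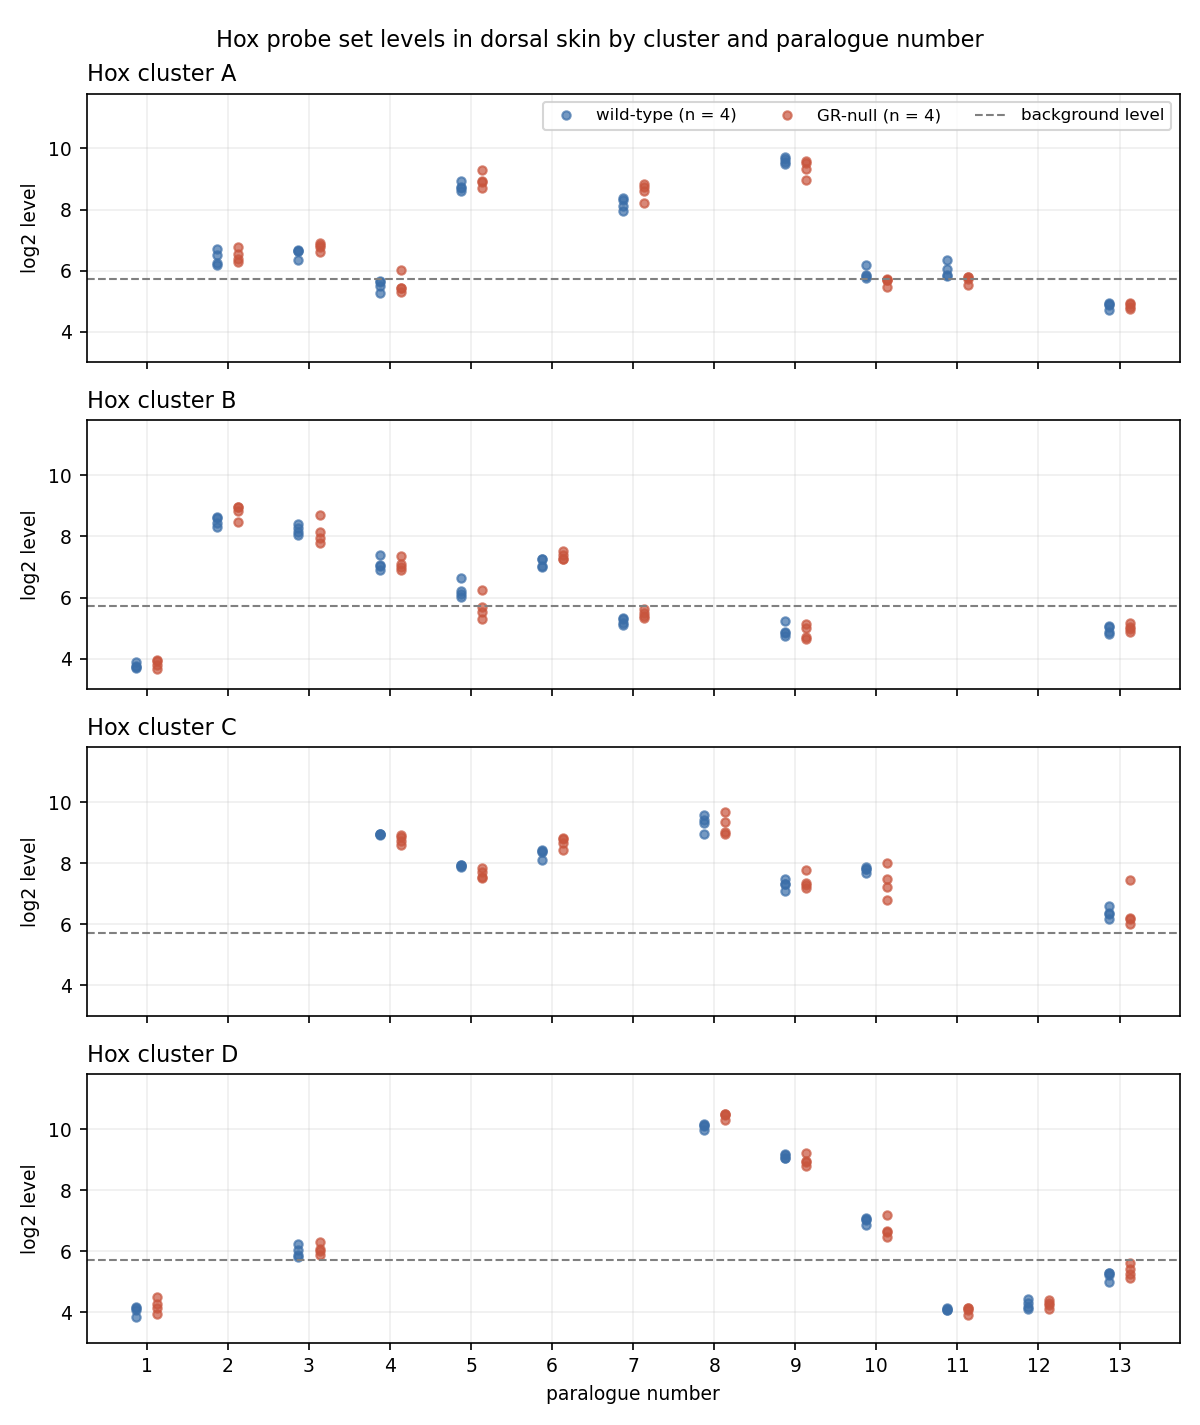
Log2 level of each Hox gene in every array, by cluster (panels) and paralogue number (horizontal axis), with wild-type arrays in blue, GR-null arrays in red and the background level of 5.71 log2 as a dashed line. Genes above the line are numbered 2 to 11 apart from Hoxc13, the only gene numbered 12 or 13 that lies above it.

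Among the anterior genes, Hoxb1 and Hoxd1, of the paralogue group first used in the hindbrain, lay under background in all 8 arrays, between 3.66 and 3.96 and between 3.84 and 4.49 log2. Hoxb2, Hoxb3 and Hoxb4 had wild-type means of 8.50 ± 0.15, 8.22 ± 0.16 and 7.09 ± 0.20 log2 (SD, n = 4) and GR-null means of 8.80 ± 0.24, 8.15 ± 0.39 and 7.09 ± 0.20. Hoxa2 averaged 6.42 ± 0.24 and 6.502 ± 0.21, Hoxa3 6.58 ± 0.16 and 6.78 ± 0.12, and Hoxd3 5.997 ± 0.19 and 6.06 ± 0.18. Hoxc4 was at 8.94 ± 0.01 in wild-type arrays, which spanned 8.93 to 8.96, and at 8.78 ± 0.15 in GR-null arrays, which spanned 8.60 to 8.94. Its groups thus overlapped. Hoxa4 was not above background on average and exceeded that level in GR-null 26 alone.

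Among the central and posterior genes used along the trunk, Hoxa5 had means of 8.74 ± 0.14 log2 (SD, n = 4, wild-type) and 8.97 ± 0.25 (GR-null), and Hoxc8, which patterns thoracic vertebrae, had 9.32 ± 0.25 and 9.25 ± 0.32. Hoxc9 averaged 7.31 ± 0.17 and 7.40 ± 0.27, and Hoxd9 9.11 ± 0.06 and 8.97 ± 0.18. Hoxb9 and Hoxd11 were under background in all 8 arrays, as were Hoxa13, Hoxb13, Hoxd12 and Hoxd13, genes of the hindmost body and distal limb. The highest value of those last 4 genes in any array was 5.60, for Hoxd13 in GR-null 5. Hoxa10 and Hoxa11 lay close to the background level, above it in 5 and 7 of the 8 arrays.

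No Hox gene passed the threshold between genotypes. By limma with Benjamini-Hochberg adjustment over all genes the count was 0 of 33, against 2.96% of all genes (1.4% higher and 1.56% lower in GR-null skin), and the smallest adjusted p was 0.0533. At an unadjusted p below 0.05 there were 10 Hox genes (30.3%), 6 higher and 4 lower in GR-null skin, against 21.6% of all genes (10.5% higher, 11.1% lower) and 27.5% of genes above background. Groups did not overlap for 6 Hox genes (18.2%), 3 in each direction, against 13% of all genes (6.69% higher, 6.3% lower) and 15.9% of genes above background. These Hox shares are over all 33 genes, of which 10 were not above background, so they are not like for like with the shares above background. Of those 10, only Hoxb7 met either criterion. The median log2 fold change (GR-null minus wild-type) was 0.03 over the 33 Hox genes and -0.00451 over all genes. The median size of the change regardless of sign was 0.16 over Hox genes and 0.12 over all genes, or 0.24 and 0.16 among genes above background. The 95% intervals of the 33 differences lay between -1.04 and 0.76 log2.

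**Figure D2:**
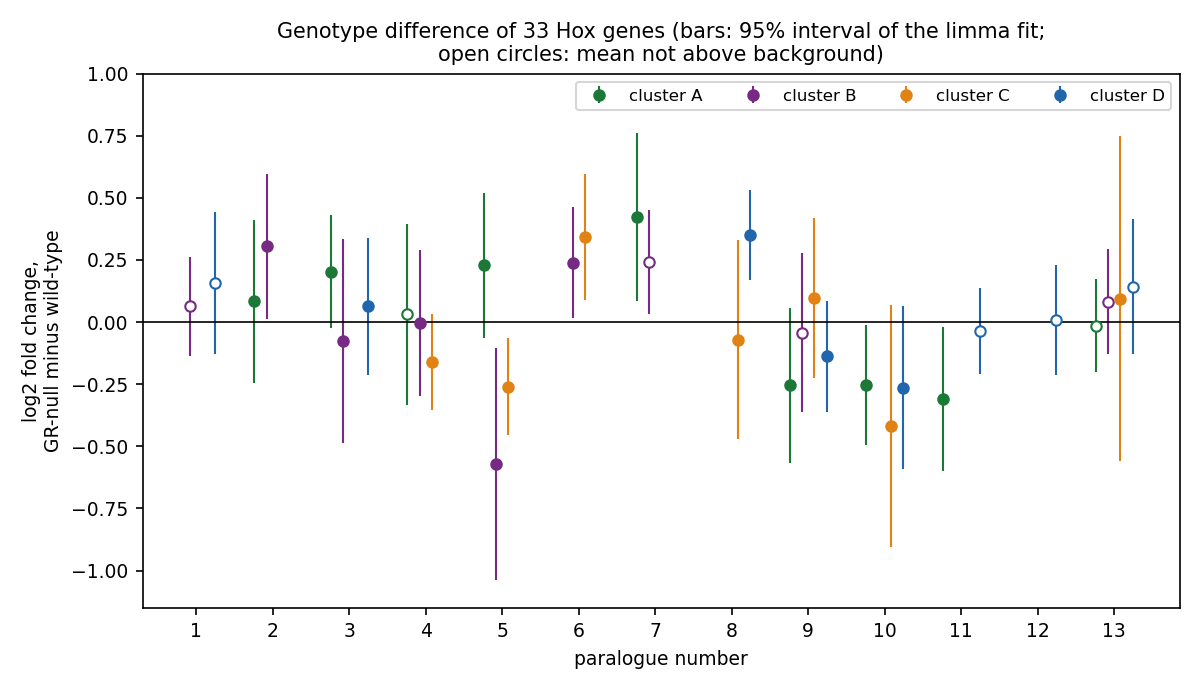
Log2 fold change of 33 Hox genes (GR-null minus wild-type, n = 4 arrays each) by paralogue number, coloured by cluster, with 95% intervals of the limma fit. Filled circles are genes above background, and 6 of the 7 filled circles at paralogue numbers 9 to 11 lie below 0. Hoxa10 and Hoxa11 are among them, with wild-type means above background and GR-null means under it.

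Hoxd8, a homeodomain gene of the trunk, had the smallest p. Wild-type 4, 6, 28 and 29 read 10.15, 10.10, 10.12 and 9.97 log2, and GR-null 5, 17, 25 and 26 read 10.47, 10.51, 10.48 and 10.29. All GR-null arrays were above all wild-type arrays, by 0.35 ± 0.08 log2 (SE, limma adjusted p = 0.0533). At its other probe set, whose name ends in _s_at, the log2 fold change was 0.02 (limma unadjusted p = 0.889), so the probe sets of Hoxd8 did not show the same difference. With limma p-values adjusted over probe sets instead of genes, the first stood at 0.0479.

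Hoxc6, a thoracic gene, read 8.40, 8.37, 8.11 and 8.43 log2 in the wild-type arrays in the same order and 8.78, 8.42, 8.66 and 8.83 in the GR-null arrays. The groups overlapped through GR-null 17, and the log2 fold change was 0.34 ± 0.11 (SE, adjusted p = 0.127). A second probe set of Hoxc6 gave 0.34 and the third -0.13. Hoxa7, of the adjoining paralogue group, read 7.94, 8.36, 8.31 and 8.12, then 8.62, 8.22, 8.75 and 8.84, and again GR-null 17 alone lay among the wild-type arrays. Its log2 fold change was 0.42 ± 0.15 (adjusted p = 0.147). Hoxb6 read 6.99, 7.02, 7.26 and 7.26, then 7.28, 7.54, 7.27 and 7.40, without overlap, at 0.24 ± 0.10 (adjusted p = 0.204). Its neighbour Hoxb7 did not overlap either, at 0.24 ± 0.09 (adjusted p = 0.178), but read between 5.08 and 5.63 in all arrays, under the background level.

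The paralogues numbered 5 in clusters B and C lay on the other side. Hoxb5 read 6.03, 6.12, 6.22 and 6.64 log2 in wild-type arrays and 5.51, 6.24, 5.69 and 5.29 in GR-null arrays, with GR-null 17 again among the wild-type values. Its log2 fold change of -0.57 ± 0.21 (SE, adjusted p = 0.155) had the largest size of the 33. With the mean of the muscle markers as a covariate it was 0.016 ± 0.23. That fit leans on GR-null 17, the only GR-null array with muscle markers near the wild-type level. Hoxc5 read 7.90, 7.87, 7.94 and 7.95, then 7.72, 7.83, 7.52 and 7.56, without overlap, at -0.26 ± 0.09 (adjusted p = 0.129). Its 3 probe sets disagreed: the next brightest gave 0.000973, and the dimmest, under background at a mean of 5.33, gave 0.58 with an adjusted p over probe sets of 0.0476. The direction of Hoxc5 is therefore uncertain.

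**Figure D3:**
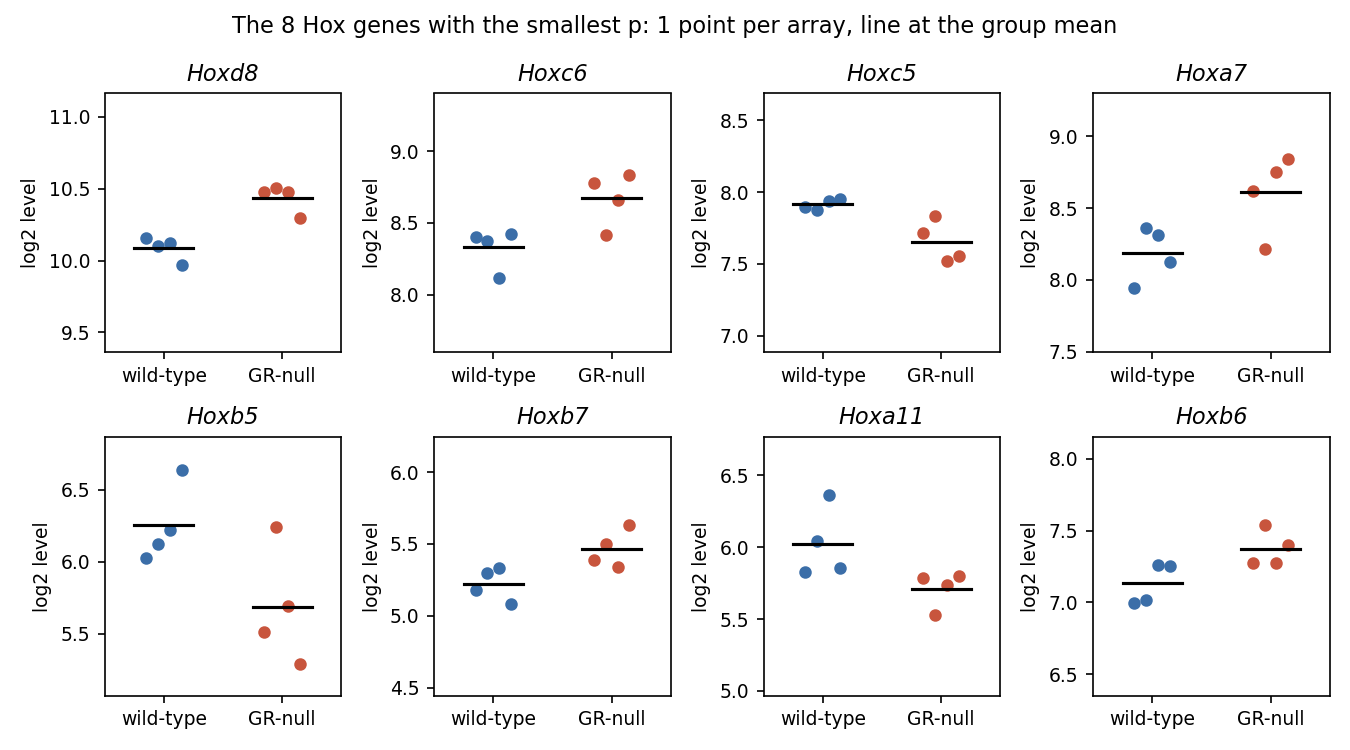
Log2 level in each array of the 8 Hox genes with the smallest p, wild-type in blue and GR-null in red, with a line at each group mean and the same span on every vertical axis. GR-null and wild-type points do not overlap for Hoxd8, Hoxc5, Hoxb7, Hoxa11 and Hoxb6, and 1 GR-null array (17) lies among or next to the wild-type points for Hoxc6, Hoxa7 and Hoxb5.

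Without GR-null 17, whose muscle marker mean was at the wild-type level, 5 Hox genes passed the threshold (15.2%, against 9.01% of all genes). Hoxa7 and Hoxc6 were higher, by 0.55 ± 0.12 (SE, adjusted p = 0.0278) and 0.43 ± 0.10 (adjusted p = 0.0363). Hoxb5, Hoxc5 and Hoxd10 were lower, at -0.76, -0.32 and -0.41 with adjusted p of 0.0271, 0.0439 and 0.0327. Array weights, which were lowest for GR-null 17 at 0.47 and ranged up to 1.92, also called 5 Hox genes (against 10.7% of all genes), with Hoxd8 (0.36, adjusted p = 0.0222) in place of Hoxd10. The count was 0 without wild-type 4, 6, 28 or 29, where 1.62%, 1.76%, 0.781% and 0.572% of all genes passed, and without GR-null 5, 25 or 26, where 1.02%, 0.434% and 0.846% passed. It was also 0 with the muscle covariate (0.17% of all genes), a block for label numbers below 10 (2.53%) and a Y-linked covariate (3.24%). The same count was found with a further quantile normalization (3.04%), a filter at background (3.55%), a trended robust prior (2.62%), the mean of all probe sets (4.86%) and no _x_at or _s_at probe sets (3.02%). With the muscle covariate the log2 fold changes of Hoxa7 and Hoxc6 were 0.11 ± 0.21 and 0.12 ± 0.16, and the sign turned at 7 of the 23 Hox genes above background: Hoxb3 (0.50), Hoxb4 (0.33), Hoxb5, Hoxc8 (0.17), Hoxc9 (-0.18), Hoxd9 (0.08) and Hoxd10 (0.13). Muscle means followed genotype, and of the GR-null arrays GR-null 17 alone lay near the wild-type level. The covariate fit thus leans on that array and separates muscle from genotype poorly. The part of the muscle markers in these differences was not tested beyond that fit.

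Genes of paralogue numbers 9 to 11 were described as a group. Of the 7 above background, 6 had a negative and 1 a positive log2 fold change, with a median of -0.25. The median over all genes above background was -0.0024. Of all genes, with no filter at background, 48.7% had a positive log2 fold change. Among the 6, Hoxa10 and Hoxa11 passed the background level of 5.713 through their wild-type means (5.90 and 6.02). Their GR-null means (5.65 and 5.711) lay under it, so the count of 6 depends in part on the filter. With the muscle covariate 5 of the 7 were negative. Of the 8 central genes above background, numbered 5 to 8, 5 had a positive and 3 a negative log2 fold change, with a median of 0.23. Hoxb5, among the negative ones, likewise had a mean above background in wild-type (6.25) but not in GR-null arrays (5.68). The difference between these classes was not tested. None of these passed the threshold with all arrays. Hoxc10 read 7.67, 7.82, 7.89 and 7.82 log2 in wild-type arrays and 8.004, 7.498, 7.21 and 6.81 in GR-null 5, 17, 25 and 26. GR-null 5 was the highest of all arrays and the other GR-null arrays were the lowest, which gives -0.42 ± 0.22 (SE, adjusted p = 0.306). Hoxd10 read 6.85, 7.01, 7.08 and 7.07, then 6.67, 7.18, 6.63 and 6.47, with GR-null 17 the highest of all. Hoxa9 read 9.71, 9.48, 9.66 and 9.57, then 9.53, 9.60, 9.31 and 8.96, low in GR-null 26 above all, while its second probe set went the other way (-0.25 and 0.18). Hoxa10 and Hoxa11, near background, did not overlap between groups, at -0.25 ± 0.11 (adjusted p = 0.214) and -0.31 ± 0.13 (adjusted p = 0.203). Hoxa11 read 5.83, 6.04, 6.36 and 5.85, then 5.78, 5.53, 5.74 and 5.80.

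For the question of body position of each array, the genes above background were averaged by class and set against the wild-type mean. They include Hoxa10, Hoxa11 and Hoxb5, which passed the background level through their wild-type means. The anterior class (7 genes numbered 1 to 4) lay between -0.08 and 0.15 log2 in wild-type arrays and at -0.16, 0.20, 0.10 and 0.10 in GR-null 5, 17, 25 and 26. The central class (8 genes numbered 5 to 8) lay between -0.06 and 0.05 in wild-type arrays and at 0.08, 0.17, 0.09 and -0.00921 in the GR-null arrays. The 7 genes numbered 9 to 11 lay between -0.06 and 0.13 in wild-type arrays and at -0.05, -0.10, -0.29 and -0.44 in the same GR-null arrays. GR-null 26 and, less so, GR-null 25 thus had a lower mean of these genes than any other array. GR-null 26 was the lowest of all 8 arrays at 5 of the 7 genes, Hoxa10 among them. Over all 23 Hox genes above background it was the lowest at 7 and the highest at 4. Its median deviation from the median of the other arrays over these genes was also the largest, at 0.28 log2 against 0.12 to 0.24. How often each array was the lowest or highest over all genes is not given here. In GR-null 5, Hoxd9 and Hoxd10 were below every wild-type array, and Hoxc9 and Hoxc10 were above every one. Hoxa10 and Hoxa11 were also below every wild-type array in GR-null 5, which the background filter favours at these genes. Muscle markers averaged 10.47, 11.26, 10.79 and 10.71 in GR-null 5, 17, 25 and 26, and their part in the class means was not tested.

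With Hoxc13 included, the posterior class differed by -0.18 log2 between genotype means, with a pooled SD between arrays of 0.15. Without GR-null 26 the difference was -0.10 and without GR-null 17 it was -0.26. It was -0.22 without Hoxc13 and -0.09 over all 14 measured genes of the class. The anterior and central differences were 0.06 and 0.09, with pooled SDs of 0.13 and 0.06. Without GR-null 5 the anterior difference was 0.13, and without GR-null 17 it was 0.01 and the central one 0.06. Without wild-type 6 the anterior value was 0.03, and without wild-type 29 it was 0.11.

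**Figure D4:**
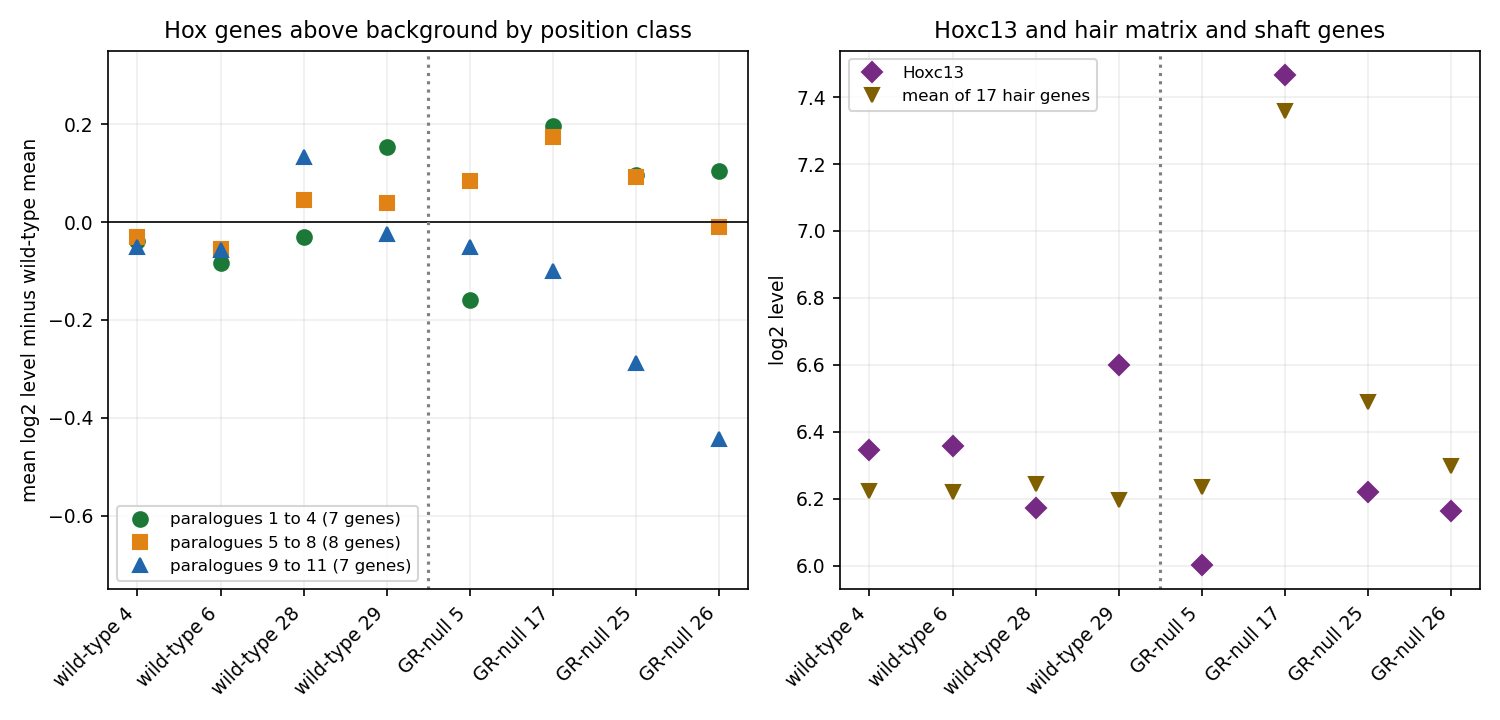
Left, mean log2 level of Hox genes above background minus the wild-type mean in each array, for paralogue numbers 1 to 4 (circles), 5 to 8 (squares) and 9 to 11 (triangles), with GR-null 26 lowest at -0.44 for numbers 9 to 11. Right, log2 level of Hoxc13 and the mean of 17 hair matrix and shaft genes in each array, both highest in GR-null 17.

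Hoxc13 is also a gene of the hair follicle, needed for the keratins of the hair shaft, and so does not mark body position alone. It read 6.35, 6.36, 6.17 and 6.60 log2 in wild-type arrays and 6.004, 7.47, 6.22 and 6.16 in GR-null 5, 17, 25 and 26. GR-null 17 was far above all other arrays and the rest of the groups overlapped, at 0.09 ± 0.29 (SE, adjusted p = 0.901). Without GR-null 17 the sign turned, to -0.24 ± 0.11 (adjusted p = 0.226). With the muscle covariate the value was 1.12 ± 0.17 (adjusted p = 0.0608). Muscle means otherwise followed genotype, so that fit leans on GR-null 17, and the other GR-null arrays showed no rise of Hoxc13. The hair matrix and shaft list averaged 6.20 to 6.24 in wild-type arrays, 7.36 in GR-null 17 and 6.23 to 6.49 in the other GR-null arrays, with 13 of 17 measured members above background. Trichohyalin (Tchh) read 9.19 in GR-null 17 and at most 5.97 elsewhere, and the inner root sheath keratin Krt71 read 10.02 against at most 6.84, both chosen after their values were seen. GR-null 17 was the highest of the 8 arrays at 9 of the 17 genes and the lowest at 1, Krt33b (5.96). How often it was the highest or lowest over all genes is not given here. Of the list, 0 of 17 passed the threshold by limma (3 at an unadjusted p below 0.05), against 2.96% (21.6%) of all genes. Krt34 had the smallest p (0.78 log2, adjusted p = 0.135). Krt34 read 5.50 in GR-null 17 and 6.12 to 6.85 in the other GR-null arrays, and without GR-null 17 it passed (0.999, adjusted p = 0.0295).

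Of the 22 measured position genes outside the clusters, 1 had groups that did not overlap, against 13% of all genes. The forelimb gene Tbx5 lay between 5.66 and 6.04 log2 in wild-type arrays and between 5.80 and 6.10 in GR-null arrays, close to background. The hindlimb genes Tbx4 and Pitx1 lay between 4.81 and 5.29 and between 5.50 and 6.13 over all arrays, and the head genes Otx2 and Alx1 between 3.56 and 3.76 and between 4.11 and 4.51. Tbx15, which acts in dorsal trunk skin, spanned 9.35 to 9.76 in wild-type arrays and 9.35 to 9.82 in GR-null arrays, and Zic1, a dorsal midline gene, 9.37 to 10.14 and 9.64 to 10.32. These genes, other than Lmx1b, were chosen after their values were seen. Of the 22 measured genes of this list, 0 rose and 1 fell, where 1.4% and 1.56% of all genes did. This was Lmx1b of the dorsal limb, which fell by 0.44 ± 0.09 (SE, adjusted p = 0.0429). It read 5.84 to 6.15 in wild-type arrays and 5.47 to 5.72 in GR-null arrays. It was near background and kept its call in 2 of the 8 fits without 1 array, those without wild-type 4 and without GR-null 17.

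Cofactors and regulators of Hox genes each held at most 1 gene past the threshold, which 2.96% of all genes passed. Of 8 measured TALE cofactors, Meis1 alone fell, by 0.66 ± 0.14 log2 (SE, adjusted p = 0.0466), from 9.05, 8.88, 8.62 and 8.68 in wild-type arrays to 8.23, 8.44, 7.83 and 8.06 in GR-null arrays. The groups did not overlap, yet the call was kept in 1 of the 8 fits without 1 array, that without GR-null 17. Of 24 Polycomb genes 1 rose, Bmi1, a subunit of Polycomb repressive complex 1, by 0.43 ± 0.09 (adjusted p = 0.0408), with wild-type arrays at 9.51 to 9.74 and GR-null arrays at 9.92 to 10.24. It kept its call in 1 of the 8 fits, that without GR-null 17. Of 12 Trithorax group and demethylase genes 1 fell, the histone methyltransferase gene Kmt2d, by 1.06 ± 0.19 (adjusted p = 0.0259), with its call kept in 2 of the 8 fits, those without wild-type 6 and without GR-null 17. Kmt2a, which maintains Hox expression, stood at -0.36 log2 (adjusted p = 0.0589), chosen after its values were seen. The unadjusted limma p was below 0.05 for 2 cofactors, 3 Polycomb and 5 Trithorax group and demethylase genes, against 21.6% of all genes. Of 12 upstream regulators 0 passed by limma, with 3 at an unadjusted p below 0.05. The retinoic acid-degrading enzyme gene Cyp26b1 had the smallest p (-0.70, adjusted p = 0.0644). It passed in 4 alternatives, without GR-null 17 (-0.76, adjusted p = 0.0422), with array weights (0.0340), with the Y-linked covariate (0.0444) and with the mean of all probe sets (0.0497). The caudal genes Cdx1, Cdx2 and Cdx4 were under background on average, and were chosen after their values were seen.

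Markers of other cells that express Hox genes were read beside these results. Of 28 muscle genes 0 rose and 5 fell (17.9% past the threshold, against 2.96% of all genes), among them Mybpc1, Casq2, Actn2 and Tnnt1 at -0.92, -0.90, -0.75 and -0.67 log2. Of the 8 fits without 1 array, Mybpc1 and Actn2 kept their calls in 1 and Casq2 and Tnnt1 in 5. Of 10 measured cartilage and bone genes and 10 neuron genes, 5 in each list were above background and 0 passed by limma. In each list 1 gene had an unadjusted p below 0.05, against 21.6% of all genes. The smallest p were those of Col9a1 (-1.02, adjusted p = 0.0683) and Isl1 (-0.28, adjusted p = 0.21). Col9a1 passed without GR-null 17 (-0.75, adjusted p = 0.0261) and with array weights (0.0385). The list means of cartilage and of neurons spanned 5.85 to 5.998 and 5.53 to 5.72 in wild-type, and 5.76 to 5.87 and 5.48 to 5.70 in GR-null arrays. Of 16 keratinocyte genes 25% passed the threshold, against 2.96% of all genes. Of these 2 rose, Trp63 and Col17a1 of basal cells (0.60 and 0.59), and 2 fell, Flg and Lor of the cornified layer (-2.35 and -0.48). Col17a1 kept its call in 1 of the 8 fits without 1 array, and Trp63, Flg and Lor in 2. Of 8 melanocyte genes 2 (25%) passed, Tyr and Pmel, which rose by 1.04 and 0.85. Of 9 measured blood genes 1 (11.1%) passed, embryonic globin Hbb-y, which fell by 1.86. The calls of Tyr and Pmel held in all 8 fits without 1 array, and that of Hbb-y in 3. Of 15, 8, 10 and 8 measured dermal fibroblast, adipocyte, endothelial and Schwann cell genes 0 passed by limma. In the same order 4, 0, 3 and 5 had an unadjusted p below 0.05, against 21.6% of all genes. Col1a1, Car3, Tek and Pmp22 stood at -0.30, -1.51, -0.69 and -0.35. The part of these cells in the Hox values was not tested.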

How the data were processed

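Expression was measured on 8 single-colour Affymetrix Mouse Genome 430 2.0 arrays, on which several short probes form a probe set. The deposited values are log2 levels per probe set made with RMA, per the submitters' processing notes, which equalises distributions across arrays and compresses differences near background. Neither its version nor any filter is stated in those notes. A linear model with genotype as its term was fitted to 45037 probe sets with limma 3.58.1 in R 4.3.3 (lmFit, eBayes, two-sided), and checked on simulated data. It was read at the brightest probe set annotated to each gene alone, with Benjamini-Hochberg adjustment over 18193 genes and a threshold of 0.05. Genes named are the Hox genes above background, those of paralogue numbers 1 to 3 and 10 to 13, the 8 with the smallest p, those with an array picked out by Dixon's test, and from each other list up to 4 members past the threshold or the 1 with the smallest p. Hoxb9 and genes said to be so were named after their values were seen. Members, lists and settings were chosen with earlier results of these data known. The settings tried were a further quantile normalization, a filter at background, a trended robust prior, array weights, leaving out each array, covariates for skeletal muscle and Y-linked genes, a block for label numbers below 10, the mean of all probe sets, and no _x_at or _s_at probe sets. The number of arrays limits the precision.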

Additional observations from a re-analysis of the deposited data

Results flagged for a closer look

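Within each genotype the highest and lowest array of every Hox gene was compared with its nearest neighbour (Dixon's test at its 95% critical value). The comparison covered 66 groups of 4 arrays and picked out 4 values, where chance picks out about 1 group in 20.

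Hoxc13 in GR-null 17 read 7.47 log2, above 6.004 to 6.22 in the other GR-null arrays. Hoxa3 in wild-type 6 read 6.34, below 6.64 to 6.68 in the other wild-type arrays. Hoxa4 in GR-null 26 read 6.03, the single array in which that gene was above the background level, against 5.32 to 5.43. Hoxd8 in GR-null 26 read 10.29, below 10.47 to 10.51 in the other GR-null arrays and still above every wild-type array.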

How the results depend on the processing

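For the 8 Hox genes with the smallest p, 135 alternative values were computed, of which 124 kept both their direction and their side of the threshold, 9 passed the threshold and 2 changed sign. The changes of sign were Hoxb5 at 0.016 log2 with the muscle covariate and Hoxc5 at 0.11 with the mean of all its probe sets. The cause was not tested, beyond the opposite values of Hoxc5's own probe sets. The count of Hox genes past the threshold was 5 with array weights and 0 to 5 without 1 array. The count over the other lists, 16 with all arrays, was 30 with array weights, 3 with the muscle covariate and 2 to 37 without 1 array. Among the genes named from those lists, Car3 changed sign with the muscle covariate (0.045). The median over the Hox genes, the differences of the anterior, central and posterior classes and the number above background stayed within the spread between arrays, or within 1.5 times for the number, under the alternatives run for them. Class differences with the muscle covariate are not given here. With it the sign turned at 7 of the 23 Hox genes above background, among them Hoxb3 of the anterior class (-0.08 to 0.50 log2). No paired analysis was possible because the labels do not give the litter. Genes near background have compressed differences, so their log2 fold changes are the least certain.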

Other observations

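Transcripts inside and beside the clusters were read as well, the former from a list added after the data were seen. Of the non-Hox transcripts that lie inside the clusters in the RefSeq gene order, 5 had a probe set of their own and 3 of these were above background. None was past the threshold by limma, against 2.96% of all genes, and 3 had an unadjusted p below 0.05, against 21.6% of all genes. Hoxd3os1, a transcript named for the opposite strand of Hoxd3, read between 9.87 and 10.08 log2 in wild-type arrays and between 9.57 and 9.80 in GR-null arrays, so that the groups did not overlap (log2 fold change -0.30 ± 0.08, SE, adjusted p = 0.0857). Hoxb5os, named after its values were seen, lay between 7.42 and 7.89 in wild-type and between 7.62 and 8.30 in GR-null arrays, with a log2 fold change of 0.24 ± 0.16 (adjusted p = 0.423). Hoxb5 itself had a log2 fold change of -0.57. No test of the pair was made.

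Of the 5 genes on each side of each cluster, 40 in all, 13 had a probe set of their own and 0 were past the threshold by limma, against 2.96% of all genes, with 3 (23.1%) at an unadjusted p below 0.05, against 21.6% of all genes. The median log2 fold change of the 13 was 0.05. Skap2, beside cluster A, had the smallest p at 0.44 ± 0.12 (SE, adjusted p = 0.0725), Calcoco1 beside cluster C stood at 0.32, Atp5g1 beside cluster B at 0.30 and Mtx2 beside cluster D at 0.24.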
